A study of Cricetulus griseus with 6 samples.

Results

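*Sumf1*, its paralog *Sumf2* and 7 sulfatases were examined in CHO-T cells after silencing of *Xbp1*. The members were the rows whose gene symbol was *Sumf1*, *Sumf2*, *Arsa*, *Arsb*, *Ids*, *Sgsh*, *Galns*, *Sulf1* or *Sulf2*, and all 9 were among the 27873 entries of the deposited files. The set was put together with the comparison of control and *Xbp1* siRNA already known, *Sumf1* being among its largest decreases, so the differences of the members are given as a description and without a test.

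CHO-T cells are Chinese hamster ovary (CHO) cells that were infected with a retrovirus carrying mouse T-cadherin (*Cdh13*) cDNA and selected with puromycin. All 6 libraries carry this transgene. Cells were transfected with negative control siRNA (n = 3 libraries) or with 1 *Xbp1* siRNA (n = 3 libraries), and RNA was taken 48 h later. The methods of the study speak in general of independent biological experiments, but the labels do not say whether the libraries of a condition came from separate cultures, and p-values measure the spread between these libraries, which may then be technical.

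Sulfatases remove sulfate groups from glycosaminoglycans, sulfolipids and steroids. A newly made sulfatase is inactive until a cysteine of its active site is turned into formylglycine in the endoplasmic reticulum (ER). The formylglycine-generating enzyme that does this is encoded by *Sumf1*, and its loss in humans causes multiple sulfatase deficiency, in which all sulfatases fail together. XBP1 is a transcription factor of the unfolded protein response that sustains the folding and secretory capacity of the ER, where this modification takes place.

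The FPKM sums were 646651 to 666267 with control siRNA and 593487 to 600986 with *Xbp1* siRNA. They did not overlap between conditions, and the values were not rescaled for this in the main fit. Relative depths of the 6 libraries lay between 94.01% and 116% of control replicate 1, with the deepest being *Xbp1* siRNA replicate 3. FPKM is the number of fragments scaled to exon length and to the mapped reads of a library, so levels of different genes can be compared per length. *Xbp1* itself was 25.96, 26.2 and 28.4 FPKM in the control libraries and 2.18, 2.11 and 1.39 FPKM with *Xbp1* siRNA, so the silenced libraries matched their labels. Of the mesenchymal markers, *Vim* lay between 296 and 389 FPKM while *Col1a1* and *Col1a2* were listed at 0. The granulosa cell marker *Fshr*, the leukocyte marker *Ptprc* and the endothelial marker *Cdh5* were listed at 0 in every library. The granulosa markers *Inha* and *Amh* were detected in all libraries, and the sum of this list ranged from 4.39 to 6.35 FPKM with control siRNA and from 5.12 to 7.25 FPKM with *Xbp1* siRNA. The endothelial sum, which is *Pecam1* alone, ranged from 0.0472 to 0.268 FPKM and from 0 to 0.0452 FPKM. The summed epithelial markers, of which 3 of 4 were in the files, ranged from 1.83 to 2.16 FPKM in control libraries and from 4.59 to 5.79 FPKM with *Xbp1* siRNA. *Krt18* was listed at 0 in every library, and the sum was carried by *Epcam*, with means of 1.82 and 4.72 FPKM. The summed mesenchymal markers ranged from 383 to 402 FPKM and from 319 to 343 FPKM, a sum carried by *Vim*, while *Fn1* had means of 13.1 FPKM with control siRNA and 23.3 FPKM with *Xbp1* siRNA. The leukocyte sum, which is *Cd68* alone, ranged from 5.18 to 6.15 FPKM and from 6.99 to 8.80 FPKM. The part of these markers in the results was not tested.

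*Sumf1* was the member with the largest difference. It was 24.0, 24.5 and 25.9 FPKM in the control libraries and 3.84, 2.94 and 3.87 FPKM in those with *Xbp1* siRNA. The conditions were far apart, and each was tight, with means of 24.8 ± 0.985 FPKM (n = 3, SD) and 3.55 ± 0.529 FPKM (n = 3, SD). The level with *Xbp1* siRNA was thus 14.3% of the control, a 6.99-fold lower value. On the scale of log2(FPKM + 0.1) the difference was −2.78 with a standard error of 0.11. Counted from the lowest, it ranked 27 among the 14361 genes that had a mean of at least 0.1 FPKM and entered the fit. In bulk RNA of this kind, fewer cells that express a gene and less RNA in each cell cannot be told apart.

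*Sumf2* encodes the paralog of the formylglycine-generating enzyme, which lies in the ER as well but does not form formylglycine. Its level was 47.6, 54.2 and 50.1 FPKM with control siRNA and 55.9, 50.7 and 56.2 FPKM with *Xbp1* siRNA. Here the conditions overlapped, and the log2 difference was 0.10 (standard error 0.06). Set against each other, *Sumf1* stood at 50.4, 45.2 and 51.7 FPKM for every 100 FPKM of *Sumf2* in the control libraries. With *Xbp1* siRNA this ratio was 6.87, 5.80 and 6.88. The ratio thus followed *Sumf1*, as *Sumf2* overlapped between conditions.

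**Figure D1:**
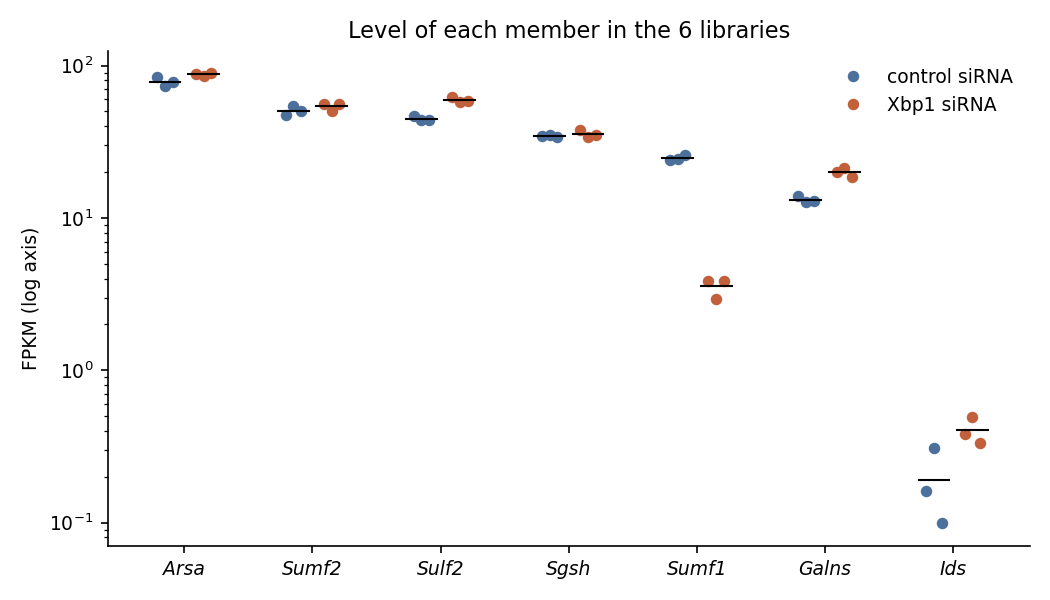
FPKM (log axis) of the 7 members with a mean of at least 0.1 FPKM, ordered by their level in the control libraries. Each point is 1 library, with 3 for control siRNA (blue) and 3 for *Xbp1* siRNA (orange), and the black bars are means; *Sumf1* is the member that drops, from a mean of 24.8 to 3.55 FPKM.

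Lysosomal sulfatases were described next, in the order of their levels. *Arsa* encodes arylsulfatase A, which degrades sulfatide and is deficient in metachromatic leukodystrophy. It had the highest level of the members, with 84.0, 73.7 and 78.1 FPKM in control libraries and 88.2, 85.7 and 89.1 FPKM with *Xbp1* siRNA. The conditions did not overlap, but the highest control library and the lowest *Xbp1* siRNA library were close, and the log2 difference was 0.16 (standard error 0.05).

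*Sgsh* encodes sulfamidase, an enzyme of heparan sulfate breakdown that is lost in Sanfilippo syndrome. Its values were 34.6, 34.8 and 34.1 FPKM with control siRNA and 37.8, 34.1 and 35.0 FPKM with *Xbp1* siRNA, and the conditions overlapped. The log2 difference was 0.04 (standard error 0.05).

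*Galns* encodes the galactosamine-6-sulfatase that acts on keratan sulfate and chondroitin sulfate and is deficient in Morquio syndrome. It was 13.9, 12.7 and 12.9 FPKM in the control libraries and 20.001, 21.3 and 18.4 FPKM with *Xbp1* siRNA. Each *Xbp1* siRNA library was above each control library, the mean being 152% of the control and the log2 difference 0.59 (standard error 0.07).

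*Ids*, the gene of iduronate 2-sulfatase and of Hunter syndrome, was barely detected. Its values were 0.162, 0.310 and 0.0992 FPKM with control siRNA and 0.380, 0.495 and 0.335 FPKM with *Xbp1* siRNA. These values fell on whole multiples of a common step, taken as 1 read, within a tolerance of 0.01 reads, so that control libraries held 5, 9 and 3 reads of it and 12, 15 and 12 reads were seen with *Xbp1* siRNA. The conditions did not overlap, but the highest control library and the lowest others were 3 reads apart, and the log2 difference of 0.85 had the largest standard error of the members, 0.38. The mean was 212% of the control. The fitted size rests on the pseudocount, being 0.24 with a pseudocount of 1 and 1.165 with one of 0.01, and it was 1.13 without control replicate 2.

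*Arsb*, which encodes the galactosamine-4-sulfatase of dermatan sulfate breakdown, was listed at 0 in 5 libraries and at 0.0406 FPKM in *Xbp1* siRNA replicate 3. *Sulf1*, the gene of an extracellular heparan sulfatase, was likewise listed at 0 in 5 libraries and at 0.0185 FPKM in the same library, the deepest. Neither passed the filter on low values, and no fold is given for them. A value of 0 in these files can mean few reads or none assigned.

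*Sulf2* encodes the endosulfatase that trims 6-O-sulfate from heparan sulfate outside the cell. In contrast to *Sulf1* it was well expressed, at 46.5, 43.6 and 43.8 FPKM with control siRNA and 62.2, 57.5 and 58.6 FPKM with *Xbp1* siRNA. The conditions did not overlap, the mean being 133% of the control and the log2 difference 0.41 (standard error 0.05).

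Over the members, the 7 that passed the filter split into *Sumf1*, lower without overlap, *Arsa*, *Galns*, *Ids* and *Sulf2*, higher without overlap, and *Sumf2* and *Sgsh*, which overlapped. Among all 14361 genes tested, 25.8% were lower and 26.1% were higher without overlap. With the pseudocount of 0.1 and all libraries, a difference of at least 1 in size on the log2 scale was reached by *Sumf1* alone, and *Ids* passed 1 with a pseudocount of 0.01 or without control replicate 2. With an adjusted p under 0.05 added as a condition, as in the thresholds of the study's methods, 359 of all genes tested were called lower, 2.5% of them, and 386 were called higher, 2.69% of them. These counts, and the shares of all genes they give, depend on the settings, with 205 lower and 114 higher calls at a pseudocount of 1 and 376 and 309 with quantile normalization. The median log2 difference of the 5 sulfatases that passed was 0.41, where all genes tested had a median of 0.01. With a pseudocount of 1 the median of these sulfatases was 0.24. Since the set was chosen on this comparison, nothing is read from these counts.

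The order of the levels was altered by *Sumf1* and *Sulf2*. In control libraries it ran from *Arsa* over *Sumf2*, *Sulf2*, *Sgsh*, *Sumf1* and *Galns* to *Ids*. With *Xbp1* siRNA it ran from *Arsa* over *Sulf2*, *Sumf2*, *Sgsh*, *Galns* and *Sumf1* to *Ids*. In neither condition did the libraries of neighbours in this order overlap, *Sulf2* and *Sumf2* being the closest in each. *Sumf1* passed from a level above that of 74.7% of the 17599 entries detected in any library to one below *Galns*.

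**Figure D2:**
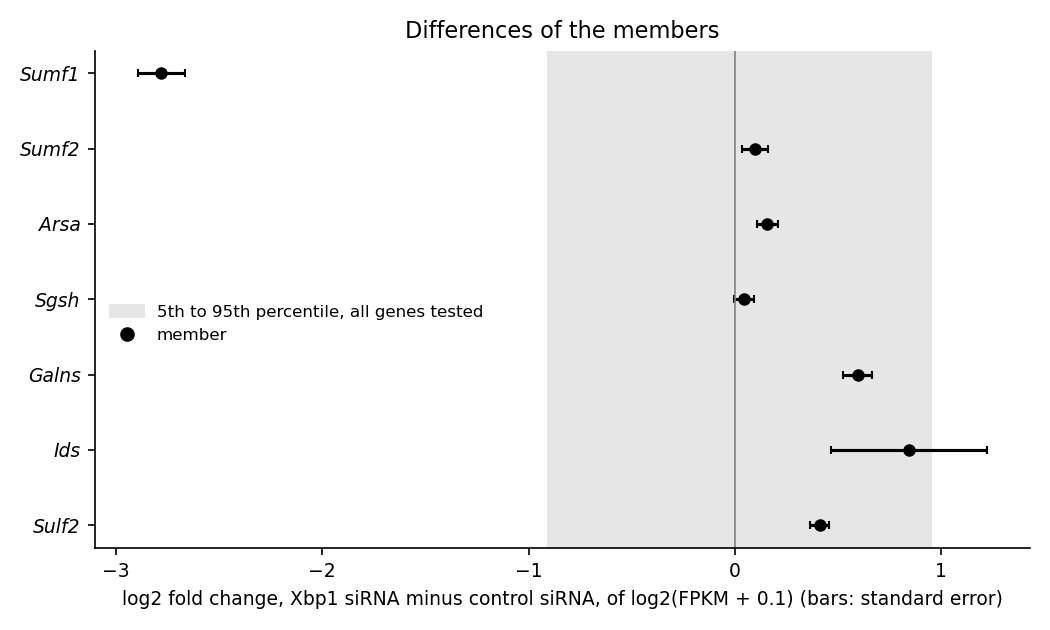
Log2 fold change (*Xbp1* siRNA minus control siRNA, on the log2(FPKM + 0.1) scale) of the 7 members tested, with bars for the standard error. The shaded band runs from the 5th to the 95th percentile of all genes tested, −0.91 to 0.95; *Sumf1* at −2.78 lies outside it, and the other members shown lie within it.

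Summed over the 7 sulfatases of the set, the level was 179, 165 and 169 FPKM in control libraries and 208, 199 and 202 FPKM with *Xbp1* siRNA. The sums of the conditions did not overlap. *Arsa* made up 45.9% ± 1.16 (SD, n = 3) of the sum with control siRNA and 43.2% ± 0.964 (SD, n = 3) with *Xbp1* siRNA, and *Galns* 7.67% ± 0.0629 (SD, n = 3) and 9.81% ± 0.789 (SD, n = 3). *Sumf1* transcripts, which encode the activating enzyme, stood at 13.4, 14.8 and 15.3 FPKM for every 100 FPKM of these sulfatases in control libraries. With *Xbp1* siRNA the figure was 1.84, 1.48 and 1.92. Over all 14 sulfatase genes found in the files, it was 11.5 ± 0.731 (SD, n = 3) and 1.38 ± 0.194 (SD, n = 3). These are ratios of mRNA, and neither the proteins nor sulfatase activity was measured in these libraries.

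**Figure D3:**
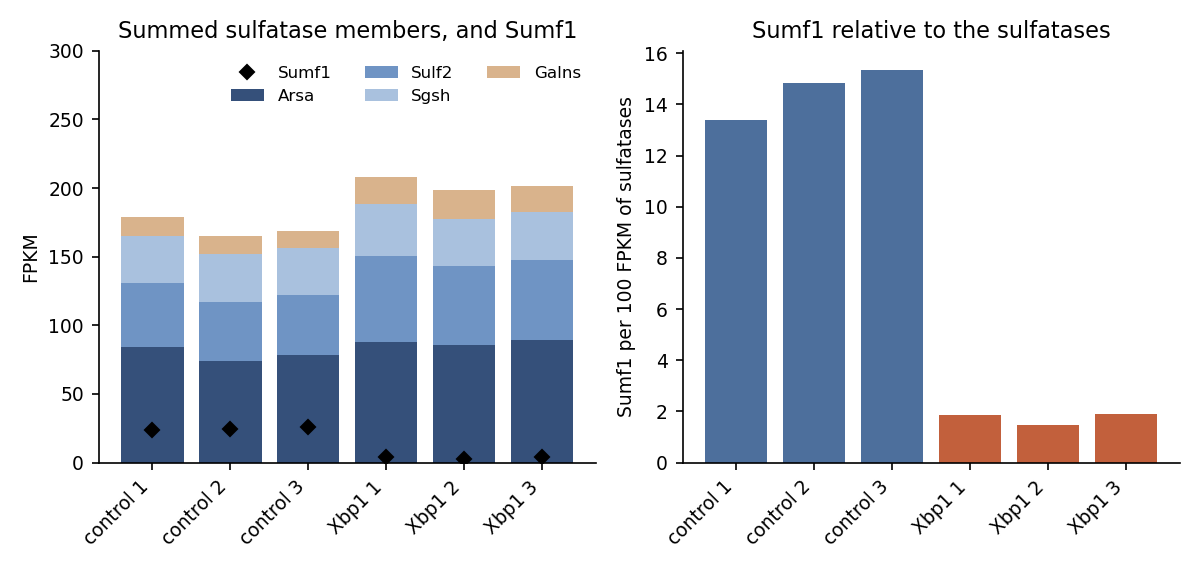
Left, FPKM of the 4 well expressed sulfatase members stacked for each library, with the level of *Sumf1* as a diamond; *Ids*, *Arsb* and *Sulf1* are too low to be seen and are left out. Right, *Sumf1* FPKM for every 100 FPKM of the 7 sulfatase members in each library, from 13.4 to 15.3 with control siRNA (blue) and from 1.48 to 1.92 with *Xbp1* siRNA (orange).

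Sulfatases outside the set were examined by the same fit, with limma on log2(FPKM + 0.1) and Benjamini-Hochberg adjustment over all genes tested. Of 11 symbols listed, among them *Arse* and *Arsl* as the older and newer name of the same gene, 7 were in the files and 4 were tested, as *Arsi* and *Arsh* were listed at 0 and *Arse* was under the filter. None was called by adjusted p and fold together. At an adjusted p under 0.05 alone, which 20.2% of all genes tested passed as higher and 20.2% as lower, 3 rose and 1 fell. *Arsk*, named after its values were seen, was 5.77, 4.94 and 5.43 FPKM with control siRNA and 7.08, 7.45 and 6.97 FPKM with *Xbp1* siRNA, a rise of 0.41 on the log2 scale (standard error 0.09, limma adjusted p = 0.00877). *Arsj*, a gene of the arylsulfatase family, fell from 7.06 ± 0.129 FPKM (n = 3, SD) to 4.54 ± 0.149 FPKM (n = 3, SD), a log2 change of −0.63 (standard error 0.08, limma adjusted p = 6.80e-04). None of the sulfatases tested, inside or outside the set, reached the size of the *Sumf1* difference.

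ER proteins that hold or carry the formylglycine-generating enzyme were listed as well, since the enzyme binds to ERp44 and protein disulfide isomerase and travels with the cargo receptor LMAN1. All 7 genes were tested, and none was called, against 2.69% of all genes called higher and 2.5% called lower. At an adjusted p under 0.05 alone (20.2% of all genes in each direction), 3 rose and 3 fell, with a median log2 change of −0.05. *Erp44*, which retains the enzyme in the early secretory pathway, was 32.5, 33.3 and 30.4 FPKM with control siRNA and 43.3, 43.6 and 43.2 FPKM with *Xbp1* siRNA, a rise of 0.44 on the log2 scale (standard error 0.05, limma adjusted p = 2.83e-04). *Mcfd2*, the partner of LMAN1 in cargo transport, was 78.3, 78.8 and 77.3 FPKM and then 57.8, 63.0 and 58.2 FPKM, a fall of −0.39 on the log2 scale (standard error 0.04, limma adjusted p = 3.45e-04).

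Lysosomal breakdown of glycosaminoglycans and sulfolipids needs glycosidases and helper proteins beside the sulfatases. Of 14 such genes listed, 13 were in the files and all of these were tested. 1 was called higher and 0 lower (2.69% and 2.5% over all genes), and at an adjusted p under 0.05 alone 9 rose and 0 fell (20.2% each over all genes). The median log2 fold change was 0.28. The called gene, *Hyal3*, belongs to the hyaluronidase family and rests on few reads, namely 20, 9 and 18 in control libraries and 54, 52 and 57 with *Xbp1* siRNA. Its level rose from 0.864 ± 0.303 FPKM (n = 3, SD) to 2.79 ± 0.118 FPKM (n = 3, SD), with a log2 change of 1.64 (standard error 0.26, limma adjusted p = 0.00201). With a pseudocount of 1 the change was 1.04, near the fold threshold. The next largest rises, named after their values were seen, were in *Glb1*, *Gusb* and *Hexa*. *Glb1*, the β-galactosidase that acts with GALNS on keratan sulfate, was 19.4, 20.1 and 21.4 FPKM and then 37.9, 37.3 and 37.9 FPKM, a log2 change of 0.89 (limma adjusted p = 1.49e-05). *Gusb*, the β-glucuronidase, had a log2 change of 0.74 and *Hexa*, a hexosaminidase subunit, one of 0.56.

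The supply of sulfate and its transfer onto glycans stand opposite to the sulfatases. Of 37 symbols listed, of which *Impad1* and *Bpnt2* are the older and newer name of the same gene, 28 were in the files and 16 were tested, 9 being listed at 0 in every library. 1 was called higher and 1 lower (all genes, 2.69% and 2.5%), and at an adjusted p under 0.05 alone 6 rose and 1 fell (all genes, 20.2% each), with a median log2 change of 0.21. *Ust*, which adds 2-O-sulfate to uronic acid of chondroitin and dermatan sulfate, had 217, 196 and 214 reads with control siRNA and 482, 453 and 564 reads with *Xbp1* siRNA, a rise of 1.12 on the log2 scale (standard error 0.07, limma adjusted p = 2.19e-05). *Hs6st3*, which adds the 6-O-sulfate of heparan sulfate that SULF2 removes, had 422, 377 and 412 reads and then 200, 203 and 215 reads. It fell from 6.25 ± 0.176 FPKM (n = 3, SD) to 2.95 ± 0.164 FPKM (n = 3, SD), a log2 change of −1.06 (standard error 0.10, limma adjusted p = 1.29e-04), and was not called with a pseudocount of 1. *Hs6st1*, an enzyme of the same reaction named after its values were seen, was the more abundant and had a log2 change of 0.32 (limma adjusted p = 0.00270), from 23.6 ± 0.645 FPKM (n = 3, SD) to 29.5 ± 1.53 FPKM (n = 3, SD).

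Genes that build the heparan sulfate chain, the substrate of SGSH, IDS and SULF2, numbered 11, of which 10 were tested. 2 were called higher and 0 lower, beside 2.69% and 2.5% of all genes, and at an adjusted p under 0.05 alone 6 rose and 1 fell, beside 20.2% each, with a median log2 change of 0.32. *Extl2*, a transferase that acts on the linkage region of the chain, was 14.6, 11.6 and 14.5 FPKM with control siRNA and 39.9, 44.5 and 40.2 FPKM with *Xbp1* siRNA, a rise of 1.62 on the log2 scale (standard error 0.10, limma adjusted p = 2.18e-05). *Ext2*, a subunit of the heparan sulfate polymerase, was 27.3, 24.7 and 25.0 FPKM and then 55.6, 52.3 and 52.3 FPKM, a rise of 1.06 on the log2 scale (standard error 0.05, limma adjusted p = 9.75e-06). *Glce*, the epimerase that makes iduronic acid and named after its values were seen, was the gene that fell at an adjusted p under 0.05, by a log2 change of −0.70 (limma adjusted p = 6.02e-04).

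Lysosomal sulfatases are sent to the lysosome by mannose 6-phosphate, and all 6 genes listed for this route were tested. 0 were called higher and 1 lower (shares over all genes of 2.69% and 2.5%), and at an adjusted p under 0.05 alone 3 rose and 2 fell (20.2% each), with a median log2 change of 0.09. The 2 receptors moved in opposite directions. *M6pr*, the cation-dependent receptor, had 965, 874 and 869 reads in control libraries against 425, 423 and 449 reads with *Xbp1* siRNA, and fell from 82.3 ± 3.49 FPKM (n = 3, SD) to 36.5 ± 2.00 FPKM (n = 3, SD), a log2 change of −1.17 (standard error 0.05, limma adjusted p = 6.26e-06). *Igf2r*, the cation-independent receptor and named after its values were seen, was 45.2, 44.8 and 45.5 FPKM and then 61.7, 59.9 and 58.5 FPKM, a log2 change of 0.41 (limma adjusted p = 1.27e-04).

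**Figure D4:**
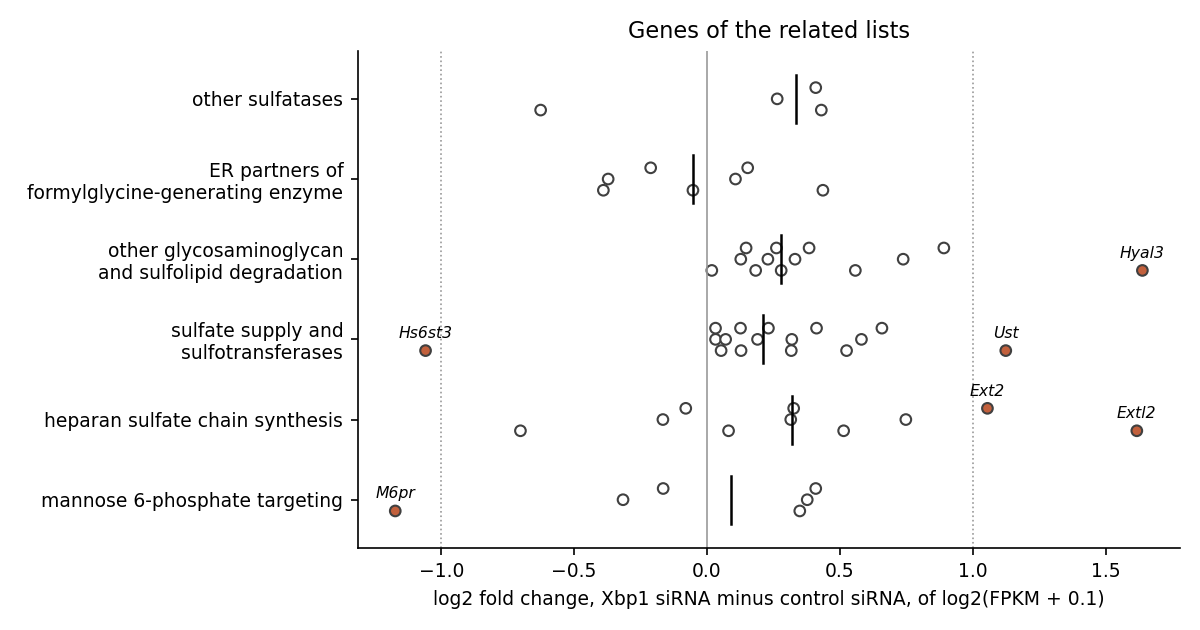
Log2 fold change of the tested genes of 6 lists related to the sulfatases; each circle is 1 gene, filled where it was called by adjusted p and fold, and the black bars are medians. Dotted lines mark a log2 change of −1 and 1; 4 genes lie beyond them as called higher and 2 as called lower.

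Over the 6 lists together, 4 of the 56 genes tested were called higher and 2 lower, where 2.69% and 2.5% of all genes were. At an adjusted p under 0.05 alone, 30 rose and 8 fell, beside 20.2% of all genes in each direction. Genes of these lists share their libraries and many share a function, and the lists were not tested as sets.

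Genes that lie beside *Sumf1* were examined for changes shared along the chromosome. In the RefSeq gene table of the Chinese hamster, 5 named protein-coding genes were taken on each side, and of these 10 genes, all in the files, 6 were tested. *Trnt1*, the enzyme that adds the CCA end to tRNAs and the third gene on one side, was the 1 gene of these that was called, as lower, beside 2.5% of all genes. It was 21.8, 25.3 and 26.5 FPKM with control siRNA and 11.8, 10.7 and 12.5 FPKM with *Xbp1* siRNA, a log2 change of −1.06 (standard error 0.09, limma adjusted p = 1.12e-04). Between it and *Sumf1*, *Crbn* had a log2 change of 0.14 (limma adjusted p = 0.350) and *Lrrn1* was listed at 0. On the other side the neighbour *Itpr1* had 0.18 (limma adjusted p = 0.120), and *Edem1*, a gene of ER-associated degradation in the fourth place, rose by 0.46 on the log2 scale (limma adjusted p = 5.03e-04) and passed an adjusted p of 0.05 alone, as 20.2% of all genes did in this direction. *Crbn* and *Itpr1* were the nearest tested genes among the named protein-coding ones, and neither passed an adjusted p of 0.05. With 3 libraries per condition this does not show that they were unchanged, and a shared cause was not tested.

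**Figure D5:**
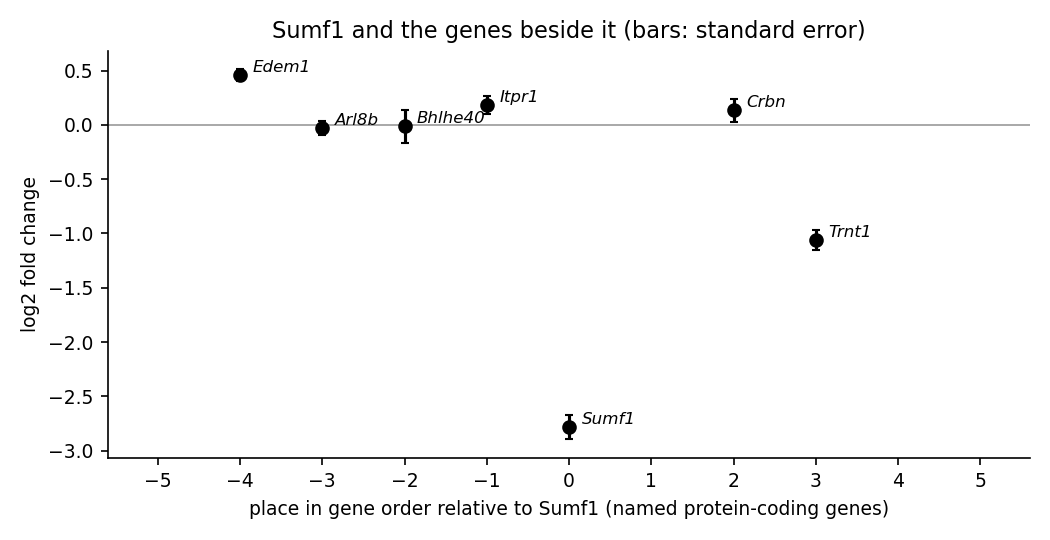
Log2 fold change of *Sumf1* and of the tested genes among its neighbours, placed by their order along the chromosome and not by distance, with bars for the standard error. *Sumf1* is at −2.78, *Trnt1* in the third place is at −1.06, and the tested neighbours in between or on the other side lie from −0.03 to 0.46.

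The genes whose 6 values resembled those of *Sumf1* most were sought among 9409 named genes with a mean of at least 1 FPKM, by Euclidean distance of log2(FPKM + 0.1) values taken relative to the control mean. *Ereg*, an EGF receptor ligand, was nearest, at a distance of 0.425, and had 13.9 ± 1.25 FPKM (n = 3, SD) with control siRNA and 1.88 ± 0.331 FPKM (n = 3, SD) with *Xbp1* siRNA. *Cpox*, an enzyme of heme synthesis, followed at 0.698 and had 18.1% of its control level left. *Areg*, another EGF receptor ligand, lay at 0.703, the cytokine *Il11* at 0.893 and *Ampd3*, an AMP deaminase, at 1.16. The remaining levels of these 5 genes ranged from 11.4% to 20.6% of the control, against 14.3% for *Sumf1*. Similar remaining levels follow from the selection, since the distance depends on the size of the fall with *Xbp1* siRNA. The likeness is a description over 6 libraries that share 1 contrast, and a common behaviour of these genes was not tested.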

How the data were processed

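Stranded mRNA libraries of 6 samples were sequenced on a HiSeq instrument. The authors deposited FPKM values, with 1 library per file. The submitters' processing notes name HISAT2 2.1.0 and Cuffdiff 2.2.1; the genome build and annotation are not given in the sources used here, so no coordinates are given. FPKM are not counts, so the study's count model was replaced. Entries with a mean FPKM of at least 0.1 were put on the scale of log2(FPKM + 0.1) and compared by limma 3.58.1 (R 4.3.3; lmFit, eBayes with an intensity trend), with Benjamini-Hochberg adjustment over all genes tested. This scale understates the change of weakly expressed genes. Calls needed an adjusted p under 0.05 and a log2 fold change of at least 1 in size. The fit was checked on simulated data.

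Total depth is not stated in the files. Relative depth was taken from the steps on which low FPKM values fall, and a gene's values are given in reads where all of them fell on whole multiples of a step, within 0.01 reads, with up to 2000 reads in the lowest library, where no library was at 0. This held for *Ids* alone of the members; the values of the others did not fall on such steps or were 0 in some libraries. Reads cover counting error only, and a factor common to all libraries would go unseen.

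The members and lists were chosen with earlier results of these data known. Genes named are the members, called genes of the lists and of the neighbours, or where a list had none, its largest change in each direction, and the 5 genes nearest to *Sumf1*; 1 gene that this rule names is not reported here, others are marked in the text, and the neighbours not called are named for their place. The RefSeq gene table (CriGri-PICRH-1.0) matched 88.0% of the symbols and served for gene order only. Replicate numbers were not taken as pairs. Alternatives were other pseudocounts (1 and 0.01), a stricter filter (mean FPKM 1) or no filter, median-ratio scaling, quantile normalization, eBayes without trend, no fold threshold, a replicate block and leaving out each library in turn. A search for sequence motifs was intended and was not run.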

Additional observations from a re-analysis of the deposited data

How the results depend on the processing

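Under 15 alternatives, none of 215 recomputed differences and medians took the opposite sign. The filters, eBayes without trend and the replicate block cannot change the difference of a single gene that is tested. Their values are among the 215 and give no check of the sign. The log2 difference of *Sumf1* was −2.51 with a pseudocount of 1 and −2.85 to −2.65 on leaving out single libraries. The median of the sulfatase members tested was 0.24 with a pseudocount of 1, and 0.285 under the stricter filter (mean FPKM 1), which drops *Ids*; leaving out single libraries gave 0.38 to 0.44. Over all genes, 114 were called higher and 205 lower with a pseudocount of 1, and 242 higher and 296 lower with the filter at 1, which tests fewer genes. Quantile normalization gave 309 higher and 376 lower. In these 3 settings, and without *Xbp1* siRNA replicate 1 (329 and 361), 2 (338 and 362) or 3 (351 and 369), lower calls outnumbered higher ones, other than in the values reported (386 and 359), and the cause was not tested. Without the fold threshold, more genes pass by construction: 2898 of all genes were higher and 2904 lower, and of the lists 3 and 1 of the other sulfatases, 3 and 3 of the ER partners, 9 and 0 of the other degradation genes, 6 and 1 of the sulfate supply genes and sulfotransferases, 6 and 1 of the chain synthesis genes and 3 and 2 of the mannose 6-phosphate genes. The same setting gave 2 calls among the neighbours of *Sumf1*. With a pseudocount of 1, 0 sulfotransferases were called lower, as *Hs6st3* had a log2 fold change of −0.88. On leaving out single libraries, the counts of the lists were as given, *Trnt1* was at −1.15 to −1.001, and 329 to 380 genes were called higher and 346 to 369 lower. A replicate block gave 363 higher and 353 lower calls. In this balanced design it cannot change a fitted difference, so *Sumf1* stayed at −2.78 by construction. Libraries with the same number did not deviate together (r of −0.0289, −0.0265 and −0.0124 across genes, which are not independent replicates).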
